A study of Mus musculus with 31 samples.

Results

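The genes described here are 8 members of the MHC class II antigen presentation pathway, namely H2-Aa, H2-Ab1, H2-Eb1, Cd74, Ciita, H2-DMa, H2-DMb1 and H2-DMb2. They were taken by gene name, with no cutoff on a measured value, out of 45786 genes listed in each library. Earlier results of these data were known when they were chosen. All 8 were listed in every library, and all 8 passed the filter on low values in both tumor models. The genes were measured by mRNA sequencing of whole tumors, 1 mouse per library and 31 libraries in all. RM-9 is a mouse prostate cancer cell line and MC-38 a mouse colon cancer cell line. Both were grown in C57BL/6 mice, under the skin of the right hind leg.

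The RT groups received a single local dose of 15 Gy and were collected 3 h, 12 h or 24 h later. Control mice received no treatment, and their libraries carried the 3 h label. RT 12 h and RT 24 h therefore lacked a Control group of their own time point. RM-9 had 4 Control, 4 RT 3 h, 4 RT 12 h and 3 RT 24 h mice, and MC-38 had 4 mice in each group. Each model had 1 set of 4 Control mice, which served all 3 of its RT groups. A tumor holds cancer cells and host cells together, so fewer cells of a type and less RNA per cell cannot be told apart in these data.

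The deposited coordinates followed build GRCm38. H2-Aa (ENSMUSG00000036594) lay on the minus strand at chr17:34282744-34287827. H2-Ab1 (ENSMUSG00000073421) lay on the plus strand at chr17:34263209-34269418 and H2-Eb1 (ENSMUSG00000060586) at chr17:34305877-34316199. H2-DMa (ENSMUSG00000037649) was at chr17:34135182-34139101, H2-DMb2 (ENSMUSG00000037548) at chr17:34143307-34151553 and H2-DMb1 (ENSMUSG00000079547) at chr17:34153072-34160230, all on the plus strand. Thus 6 of the 8 genes sat in 1 cluster on chromosome 17. Cd74 (ENSMUSG00000024610) lay at chr18:60803848-60812646 and Ciita (ENSMUSG00000022504) at chr16:10488178-10527564, both on the plus strand.

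MHC class II molecules carry peptides from engulfed proteins to the cell surface, where CD4+ T cells read them. They are made mainly by dendritic cells, macrophages and B cells, and interferon-gamma can switch them on in other cells. H2-Aa and H2-Ab1 encode the alpha and beta chains of I-A, and H2-Eb1 encodes the beta chain of I-E. Cd74 is the invariant chain, which fills the groove during assembly. H2-DMa with H2-DMb1 or H2-DMb2 forms H2-DM, which exchanges the remnant of the invariant chain for peptide. Ciita is the transactivator that turns these genes on. It does not bind DNA itself but docks on the RFX, CREB and NF-Y factors that sit on the X and Y boxes of class II promoters.

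The 250 bases before the RefSeq start (GRCm38.p6) are shown for H2-Aa, H2-Eb1, H2-DMb1 and H2-DMb2, since the shared regulators of class II genes are known to act through the X and Y boxes there. Of the 8 genes, 5 had a RefSeq window. The windows of H2-DMa lay outside its deposited span and are not shown. The window of H2-DMb2 lay inside the deposited span of its gene, and that of H2-DMb1 overlapped the deposited span of its gene. Capitals mark matches to GATTGG, the Y box letters, to AACNGATGATG, the X box letters of H2-Eb1, and to TGACGTCA, the cyclic AMP response element. The letters were chosen with these sequences in view, and both strands were searched. H2-Aa is at chr17:34287824-34288073 on the minus strand, and the other windows are on the plus strand at chr17:34305617-34305866 (H2-Eb1), chr17:34152941-34153190 (H2-DMb1) and chr17:34144999-34145248 (H2-DMb2).
H2-Aa: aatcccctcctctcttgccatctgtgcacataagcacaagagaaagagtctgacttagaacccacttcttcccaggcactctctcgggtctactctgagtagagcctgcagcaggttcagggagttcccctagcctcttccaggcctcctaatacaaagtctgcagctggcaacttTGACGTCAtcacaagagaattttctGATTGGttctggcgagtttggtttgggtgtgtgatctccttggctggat
H2-Eb1: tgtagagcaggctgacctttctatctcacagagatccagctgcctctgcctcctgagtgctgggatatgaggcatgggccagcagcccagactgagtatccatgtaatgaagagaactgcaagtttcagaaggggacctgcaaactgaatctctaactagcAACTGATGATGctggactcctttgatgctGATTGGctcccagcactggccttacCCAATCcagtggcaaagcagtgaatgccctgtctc
H2-DMb1: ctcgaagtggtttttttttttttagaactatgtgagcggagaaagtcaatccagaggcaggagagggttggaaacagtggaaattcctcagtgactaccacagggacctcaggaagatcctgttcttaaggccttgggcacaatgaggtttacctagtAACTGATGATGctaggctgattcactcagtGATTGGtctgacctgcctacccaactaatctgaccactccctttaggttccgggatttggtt
H2-DMb2: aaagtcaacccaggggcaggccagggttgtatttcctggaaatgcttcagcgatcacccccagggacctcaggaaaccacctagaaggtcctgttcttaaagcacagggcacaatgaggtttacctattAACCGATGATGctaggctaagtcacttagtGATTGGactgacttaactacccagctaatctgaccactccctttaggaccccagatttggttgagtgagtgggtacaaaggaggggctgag

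All 4 windows shown held GATTGG on the sense strand, and H2-Eb1 held it on the antisense strand as well. The sense match began 49 bases before the start in H2-Aa, 60 in H2-Eb1, 62 in H2-DMb1 and 91 in H2-DMb2. In H2-Eb1, H2-DMb1 and H2-DMb2 the AACNGATGATG match began 29, 30 and 30 bases ahead of the Y box letters. In H2-Aa, TGACGTCA took a similar place, 25 bases ahead. Of the H2-DMa windows, that at chr17:34125268-34125517 held GATTGG 199 bases before its start and no other match. The window at chr17:34122582-34122831 held no match. Among all 32851 RefSeq windows of this length, 14.6% held GATTGG, 1.55% held TGACGTCA and 0.0487%, or 16 windows, held AACNGATGATG. A match describes letters and is not a measured binding site.

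The libraries held about 21400000 to 29400000 reads, as worked out from coverage and FPKM. Values are TPM, a level per length of transcript in which each library adds up to 1 fixed total. Mitochondrially encoded genes took 47.3% to 57.2% of TPM in RM-9 and 22.5% to 40.6% in MC-38, the highest MC-38 value being Control mouse 1. Every other gene is measured in the remainder, so its TPM moves with that share. RM-9 libraries held Krt8 at 463 TPM or more, and MC-38 libraries held it at 0.202 TPM or less. Ms4a1, the B cell antigen CD20, was at or near 0 in all libraries.

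In Control tumors of both models, Cd74 was the most abundant member per length and Ciita the least. In RM-9, mean Cd74 was 356 TPM ± 128 (SD, n = 4), H2-Aa 140 ± 53.6, H2-Ab1 138 ± 55.1 and H2-Eb1 99.7 ± 41.7 TPM. The H2-DM genes were lower, with H2-DMb1 at 15.5 ± 5.28, H2-DMa at 14.3 ± 4.04 and H2-DMb2 at 5.40 ± 1.47 TPM, and Ciita was at 0.693 ± 0.320 TPM. In MC-38 Control tumors (n = 4), Cd74 was at 438 ± 149, H2-Aa at 195 ± 72.7, H2-Ab1 at 169 ± 59.9 and H2-Eb1 at 125 ± 42.8 TPM. There H2-DMb1 was at 50.5 ± 11.1, H2-DMa at 28.3 ± 5.52, H2-DMb2 at 8.996 ± 2.69 and Ciita at 1.44 ± 0.324 TPM. The order among H2-Aa, H2-Ab1 and H2-Eb1 depends on the deposited column. FPKM exceeded the level implied by coverage 2.29-fold for H2-Aa, 1.36-fold for H2-Ab1 and 1.00-fold for H2-Eb1. By coverage, mean H2-Aa in RM-9 Control was 132 and H2-Eb1 214 reads per base. The factor was nearly constant for a gene, so differences between groups do not rest on it, with the exception of H2-DMb2, where it ran from 2.56 to 3.12.

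**Figure D1:**
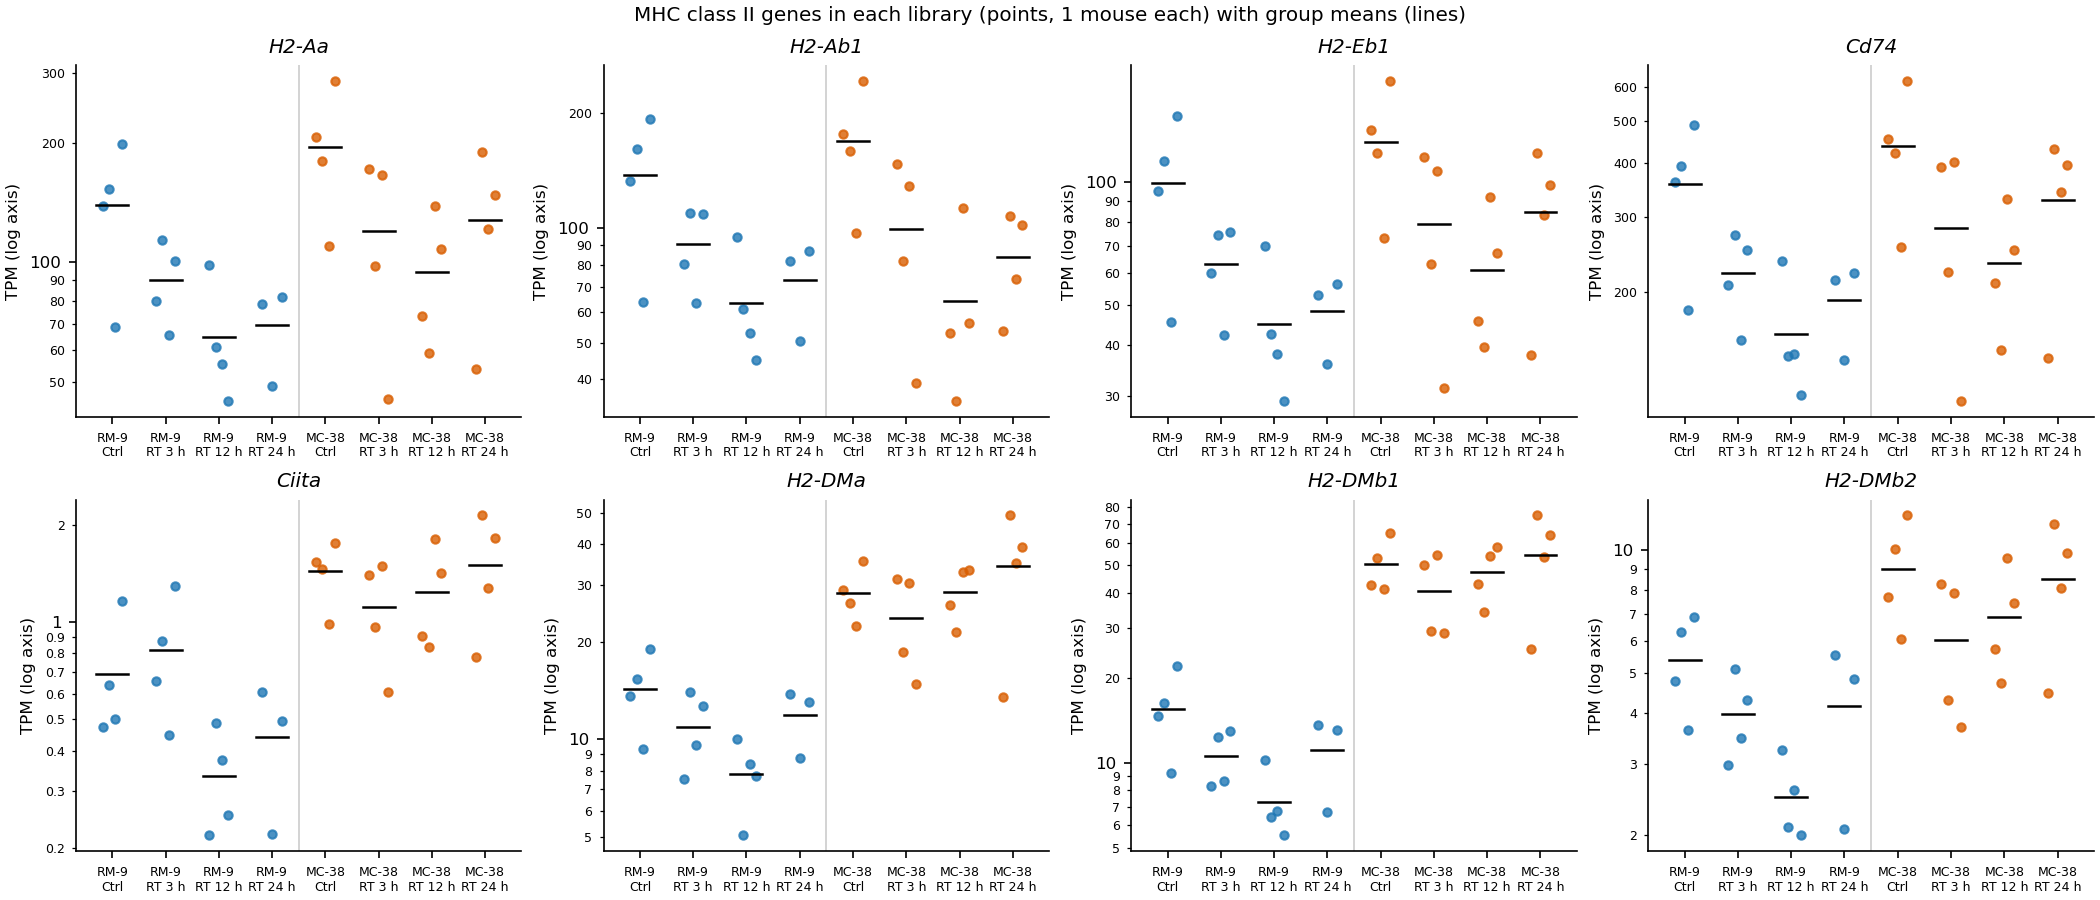
TPM (log axis) of the 8 class II genes in each of 31 libraries (points, RM-9 blue and MC-38 orange), with group means as lines. Cd74 ran from 116 to 489 TPM in RM-9 and from 112 to 620 TPM in MC-38, and the mean of each H2-DM gene in Control was higher in MC-38 than in RM-9.

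Before RT, the H2-DM genes and Ciita were higher in MC-38 than in RM-9 tumors. Here and in every later comparison of the models, tumor model cannot be told apart from any difference in sequencing run or in cell number injected. H2-DMb1 showed the widest gap. It was at 14.6, 16.3, 9.17 and 21.98 TPM in the 4 RM-9 Control mice and at 42.7, 53.05, 41.2 and 65.2 TPM in the 4 MC-38 Control mice. The groups did not overlap, and the log2 fold change was 1.71 ± 0.30 (SE), with an adjusted p of 1.33e-05 by limma. H2-DMa was higher by 0.98 ± 0.31 on the log2 scale (adjusted p = 0.00529), Ciita by 0.72 ± 0.24 (adjusted p = 0.0102) and H2-DMb2 by 0.68 ± 0.30 (adjusted p = 0.0431).

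Thus 4 of 8 members were called higher in MC-38 and 0 lower, against 64.7% of 15358 genes higher and 10.7% lower. Median-ratio scaling, which sets the typical gene equal between libraries, gave 34.1% higher and 31.5% lower, and 45.4% and 21.7% resulted without mitochondrial genes. In 2 of 8, H2-DMa and H2-DMb1, every MC-38 mouse lay above every RM-9 mouse, against 50.9% of genes. The share of members called was thus below that of all genes, whose median log2 fold change was 0.63. H2-Aa, H2-Ab1, H2-Eb1 and Cd74 gave log2 fold changes of 0.50, 0.33, 0.38 and 0.32, none of them past the threshold. The 95% interval for Cd74 ran from -0.47 to 1.102. H2-DMb1 alone stayed called when mitochondrial genes were left out of the total (log2 fold change 1.300, adjusted p = 0.000663) and under median-ratio scaling (1.05, adjusted p = 0.00399). H2-DMb1 and H2-DMb2 are close copies, so the split of reads between them is uncertain.

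The next question was whether RT changed the class II genes in RM-9 tumors. At 12 h, 7 of 8 members fell, each to around 0.46 to 0.56 of the Control level on the log2(TPM + 0.5) scale. Cd74 was at 361, 393, 182 and 489 TPM in the 4 Control mice and at 237, 142, 144 and 116 TPM in the 4 RT 12 h mice. Of the 4 irradiated values, 3 lay below every Control value, and 1 lay between the low Control mouse and the others. The log2 fold change was -1.12 ± 0.29 (SE), with an adjusted p of 0.0340.

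The RNA of H2-Ab1, H2-Aa and H2-Eb1 followed, and class II protein was not measured. H2-Ab1 was at 133, 161, 63.9 and 193 TPM in Control and at 94.6, 61.2, 52.8 and 44.9 TPM at 12 h, for a log2 fold change of -1.06 ± 0.31 (adjusted p = 0.0498). H2-Aa changed by -1.06 ± 0.30 (adjusted p = 0.0460) and H2-Eb1 by -1.10 ± 0.32 (adjusted p = 0.0489). In these 3 genes, too, 1 irradiated mouse overlapped the Control mice.

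The peptide exchange genes fell by similar amounts. H2-DMb2 was at 4.79, 6.30, 3.63 and 6.87 TPM in Control and at 3.25, 2.10, 2.59 and 2.00 TPM at 12 h. It was the 1 member whose groups did not overlap, with a log2 fold change of -0.97 ± 0.26 (adjusted p = 0.0374). H2-DMb1 changed by -1.02 ± 0.27 (adjusted p = 0.0368) and H2-DMa by -0.83 ± 0.24 (adjusted p = 0.0484). Ciita, the transactivator, was at 0.474, 0.637, 0.501 and 1.16 TPM in Control and at 0.219, 0.487, 0.373 and 0.252 TPM at 12 h. Its log2 fold change of -0.50 ± 0.22 did not pass the threshold (adjusted p = 0.145), and at this level the pseudocount shrinks the change.

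In that comparison 8.30% of 14013 genes were called lower, or 1163 genes, which became 6 under median-ratio scaling and 67 without mitochondrial genes. Every irradiated mouse lay below every Control mouse in 19.4% of genes, against 1 of 8 members. The median log2 fold change of all genes was -0.19, and that of the members -1.04. The adjusted p-values lay just under the threshold, and the call depended on scaling and on single mice. Under median-ratio scaling and without mitochondrial genes 0 of 8 members were called, with Cd74 at -0.90 (adjusted p = 0.197) and -0.98 (adjusted p = 0.126). Leaving out any 1 mouse of the 2 groups gave 0 of 8, except Control mouse 3, whose removal gave 7. By the exact permutation test on mean TPM, two-sided, H2-DMb2 alone reached the smallest p that 4 against 4 mice allow (0.0286), and it was 0.213 after adjustment over 56 such tests.

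At 3 h in RM-9, no member passed the threshold, against 0.0285% of genes called lower. The smallest adjusted p of a member was 0.216, for Cd74 (log2 fold change -0.63, unadjusted p = 0.0440). Cd74 was at 208, 272, 155 and 251 TPM, with 1 value below the Control range and 3 inside it. Of the members, 7 had negative log2 fold changes, and Ciita had 0.14, with an interval from -0.33 to 0.61.

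At 24 h, H2-Aa, H2-Ab1, H2-Eb1 and Cd74 stood nearly as low as at 12 h, while the H2-DM genes lay nearer to Control. Cd74 was at 213, 139 and 222 TPM in the 3 mice, for a log2 fold change of -0.84 ± 0.31. H2-Aa was at 78.3, 48.7 and 81.5 TPM (-0.94 ± 0.33). H2-DMa was at 13.8, 8.78 and 13.03 TPM (-0.24 ± 0.26). No member passed the threshold, the smallest adjusted p being 0.998, and 0% of genes were called lower at this time in the limma fit. At an unadjusted p below 0.05 stood 4 members, Cd74, H2-Aa, H2-Ab1 and H2-Eb1, and 681 of all genes. Dunnett comparisons on TPM, which are not adjusted over genes, passed 0.05 for 1 member at 24 h, H2-Aa.

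**Figure D2:**
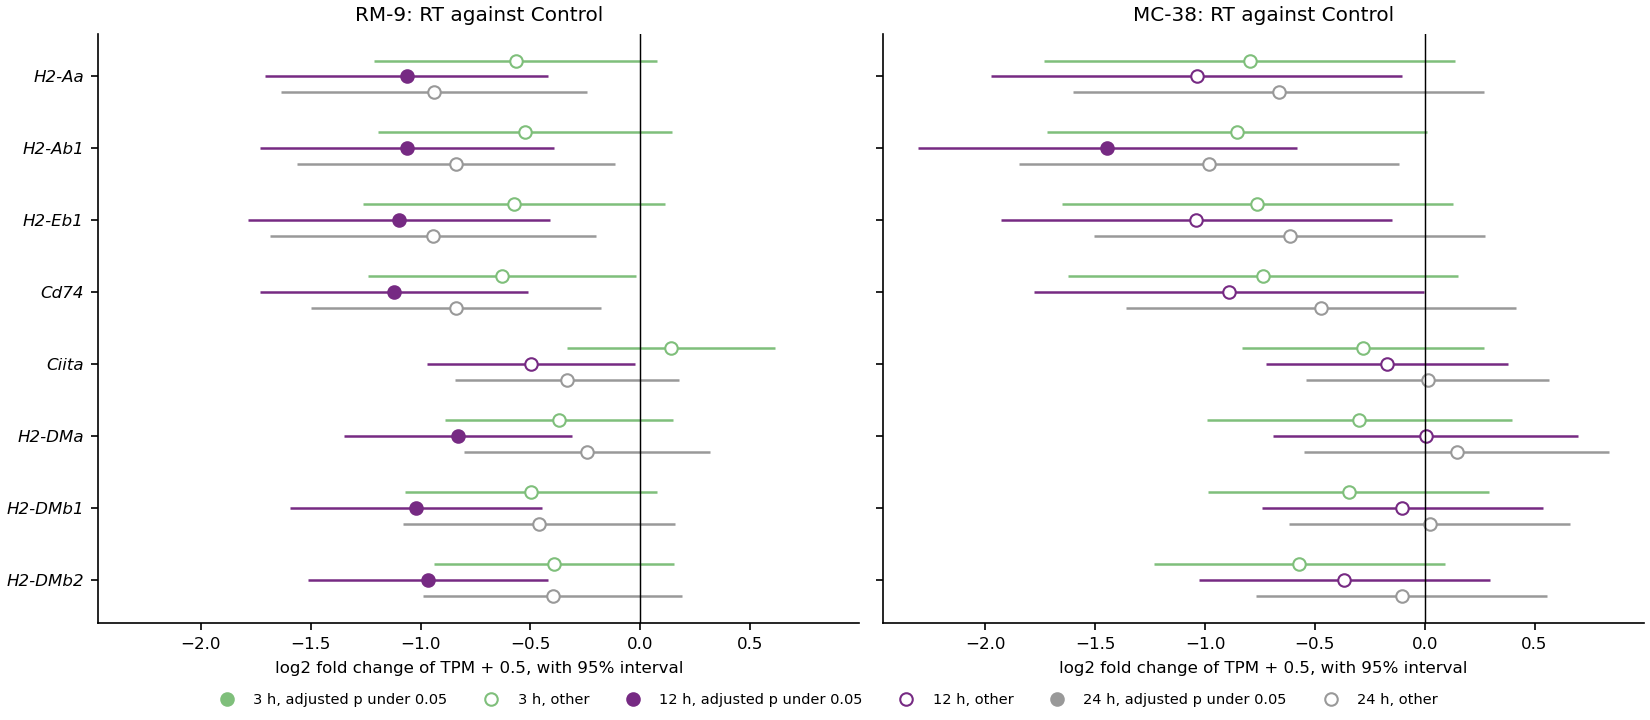
Log2 fold changes of TPM + 0.5 (points) with 95% intervals (lines) for the 8 class II genes at each time after RT, RM-9 on the left and MC-38 on the right. Filled points passed an adjusted p of 0.05, which held for 7 genes at 12 h in RM-9 and for H2-Ab1 at 12 h in MC-38.

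In MC-38 tumors, 1 member, H2-Ab1, was called lower at 12 h after RT. H2-Ab1, the I-A beta chain, was at 177, 159, 97.1 and 243 TPM in the 4 Control mice and at 53.1, 35.1, 112 and 56.1 TPM in the 4 RT 12 h mice. Of the irradiated values, 3 lay below every Control value, and 1 exceeded the lowest Control mouse. The log2 fold change was -1.45 ± 0.41 (SE), with an adjusted p of 0.0215, and 2.59% of 15698 genes were called lower and 28.5% higher. Median-ratio scaling turned this split to 9.84% lower and 6.34% higher. The call held under all scalings and pseudocounts tried and was lost without a filter on low values. It was also lost without Control mouse 1, whose mitochondrial share stood apart (adjusted p = 0.0584), and without Control mouse 4, RT 12 h mouse 2 or RT 12 h mouse 4, in which it lay between 0.0541 and 0.0676. Without Control mouse 3, H2-Aa, H2-Eb1 and Cd74 were called as well. By the exact permutation test on mean TPM, H2-Ab1 at 12 h had p = 0.0571, or 0.213 after adjustment over 56 such tests. H2-Aa, H2-Eb1 and Cd74 had the same values, so this test did not set H2-Ab1 apart from them.

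H2-Aa and H2-Eb1 gave log2 fold changes of -1.04 at 12 h (adjusted p = 0.0776 and 0.0667). Cd74 was at 455, 422, 255 and 620 TPM in Control and at 210, 147, 330 and 251 TPM at 12 h (-0.89 ± 0.42, adjusted p = 0.102). H2-DMa was at 28.9, 26.3, 22.4 and 35.5 TPM in Control and at 26.05, 21.4, 32.9 and 33.3 TPM at 12 h. The groups overlapped throughout, and the log2 fold change was 0.00, with an interval from -0.69 to 0.70. H2-DMb1 gave -0.10, H2-DMb2 -0.37 and Ciita -0.17, none past the threshold. The sign for H2-DMa and other values near 0 turned with the scaling.

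At 3 h in MC-38, the 8 log2 fold changes ran from -0.86 (H2-Ab1) to -0.28 (Ciita), and none passed the threshold, against 0.0127% of genes called lower. The spread at this time was wide. H2-Ab1 was at 147, 81.8, 129 and 39.2 TPM. The mice at 81.8 and 39.2 TPM each lay below every Control mouse in all 8 members. At 24 h the values ran from -0.98 (H2-Ab1, adjusted p = 0.116) to 0.15 (H2-DMa), and again none passed, against 0.548% of genes called lower. One RT 24 h mouse was low for all 8 members, with H2-DMa at 13.5 TPM where the other 3 mice had 49.1, 35.0 and 39.1 TPM. Dunnett comparisons passed 0.05 for H2-Ab1 at 24 h.

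Within a model, no 2 groups next to each other in the order of mean level differed in any member by the exact permutation test. This covered 24 neighbouring pairs per model, and the smallest p was 0.0571 in RM-9 and 0.143 in MC-38. Control was the highest group for 7 of 8 members in RM-9 and for 5 of 8 in MC-38. RT 12 h was the lowest for 8 of 8 in RM-9 and for 4 of 8 in MC-38.

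Whether the change after RT differed between the models was tested directly, in 1 limma fit of all 31 libraries. No member passed at any of the 3 times. The nearest was H2-DMb1 at 12 h, where the MC-38 change exceeded the RM-9 change by 0.92 ± 0.43 on the log2 scale (adjusted p = 0.0775). For H2-DMa it was 0.83 ± 0.43 (adjusted p = 0.109) and for H2-Ab1 -0.38 ± 0.55 (adjusted p = 0.564). At 12 h, 44.9% of genes were called with a positive difference and 0.469% with a negative one, and under median-ratio scaling these shares were 1.53% and 1.31%. At 24 h these shares were 1.81% and 0%, and at 3 h they were 0% in both directions. The fall of 7 members in RM-9 and of 1 in MC-38 therefore does not show that the models differ.

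Ratios between members within a library do not depend on the scaling of that library. These ratios were chosen after the values were seen, and 98 comparisons of ratios were made, so that the smallest exact p of 0.0286 became 0.117 after adjustment. In RM-9, H2-Ab1 stayed near H2-Aa. The ratio of H2-Ab1 to H2-Aa was 0.960, 1.05, 0.929 and 0.976 in the 4 Control mice and 0.961, 0.998, 0.953 and 1.00 at 12 h. In MC-38 it was 0.855, 0.886, 0.887 and 0.851 in Control and 0.727, 0.593, 0.813 and 0.520 at 12 h. Each irradiated MC-38 mouse lay below each Control mouse, although H2-Ab1 itself ran from 97.1 to 243 TPM over the Control mice.

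At 3 h the MC-38 ratio was 0.861, 0.837, 0.778 and 0.864, and at 24 h it was 0.993, 0.569, 0.603 and 0.690. The first of the 24 h values came from the mouse in which all members were low. Relative to H2-Eb1 and to Cd74, too, H2-Ab1 stood lower in all 4 MC-38 mice at 3 h and in all 4 at 12 h than in any Control mouse, with an exact permutation p of 0.0286 in these 4 tests. The ratio of H2-Eb1 to H2-Aa did not share this shift: in MC-38 it was 0.648 ± 0.021 (SD, n = 4) in Control and 0.645 ± 0.024 at 12 h (exact permutation p = 0.943). A lower level relative to Cd74 was not particular to H2-Ab1. H2-Eb1 over Cd74 lay below every Control mouse in all 4 MC-38 mice at 12 h and at 24 h (exact permutation p = 0.0286 each). Its mean was 0.286 in Control and 0.258 at 12 h. H2-Aa over Cd74 lay below in 3 of 4 mice at both times. By the deposited coverage, H2-Ab1 over H2-Aa was 1.44 to 1.49 in Control and 0.874 to 1.38 at 12 h. The factor between FPKM and coverage was nearly constant for both genes, so this is no separate check. The shift of H2-Ab1 over H2-Aa at 12 h was -0.41 on the log2 scale in MC-38 and 0.00 in RM-9. The difference between the models gave an exact p of 0.0302 over 4900 relabellings within the models, and 0.111 after adjustment over 5 such tests.

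At 12 h in MC-38, the H2-DM genes and Ciita stood higher relative to Cd74 than in Control. The ratio of H2-DMa to Cd74 was 0.0635, 0.0623, 0.0877 and 0.0573 in Control and 0.124, 0.146, 0.0999 and 0.133 at 12 h. That of H2-DMb1 to Cd74 was 0.121 ± 0.030 (SD, n = 4) in Control and 0.208 ± 0.032 at 12 h. In both, every 12 h mouse lay above every Control mouse. The same held for H2-DMb2 and Ciita over Cd74 (exact permutation p = 0.0286 each). No share over all genes was worked out for these ratios. At 24 h every mouse lay above Control for H2-DMa, at 0.103 ± 0.0078. For H2-DMb1 2 of 4 mice did so, and for H2-DMb2 and Ciita 3 of 4. At 3 h all of these ratios overlapped Control. In RM-9 the ratio of H2-DMb1 to Cd74 was 0.0443 ± 0.0045 in Control and 0.0459 ± 0.0021 at 12 h, a difference within the spread of the mice. The models differed in the shift of this ratio by 0.74 on the log2 scale (exact p = 0.0445, adjusted p = 0.111 over 5 tests). For H2-DMa over Cd74, RM-9 ran from 0.0376 to 0.0512 in Control and from 0.0356 to 0.0669 at 12 h, and the difference between the models was 0.65 (exact p = 0.151). For H2-DMb2 and Ciita over Cd74 the difference between the models was 0.48 and 0.55 (exact p = 0.0739 and 0.307). At 24 h in RM-9 the ratio of H2-DMa to Cd74 ran from 0.0587 to 0.0649, above Control in 3 of 3 mice (exact permutation p = 0.0571, or 0.170 adjusted over 98).

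**Figure D3:**
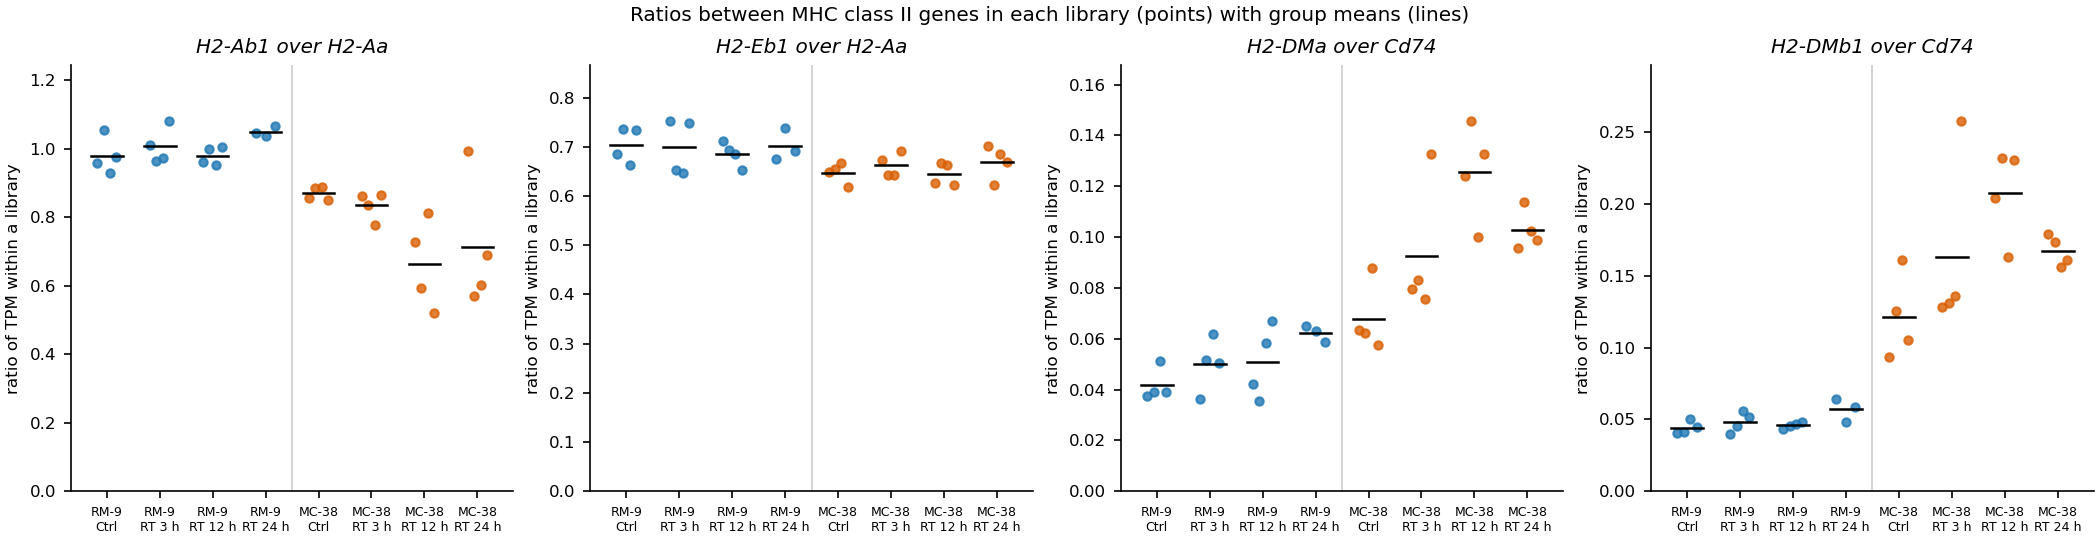
Ratios of TPM between class II genes within each library (points, RM-9 blue and MC-38 orange), with group means as lines and axes from 0. In MC-38, H2-Ab1 over H2-Aa lay between 0.851 and 0.887 in Control mice and between 0.520 and 0.813 at 12 h, while H2-Eb1 over H2-Aa had means of 0.648 and 0.645.

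Across libraries the chain genes moved as 1 group. In RM-9 the Pearson r of log2(TPM + 0.5) among H2-Aa, H2-Ab1, H2-Eb1 and Cd74 was 0.989 to 0.994 over 15 libraries. In MC-38 it was 0.916 to 0.998 over 16 libraries, the lowest of these pairs being H2-Ab1 with Cd74. Between these 4 genes and the H2-DM genes r was 0.776 to 0.945 in RM-9 and 0.540 to 0.918 in MC-38. Ciita correlated with the other members at 0.553 to 0.671 in RM-9 and at 0.739 to 0.947 in MC-38. These are descriptions over libraries that share groups and scaling.

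The genes outside the members whose profile was most like the mean of the 4 chain genes differed between the models. In RM-9 they were Hfe, Plbd1, Klrb1b, Fam105a and Trbc1, a constant segment of the T cell receptor beta chain, with r of 0.920, 0.918, 0.889, 0.862 and 0.857. In MC-38 they were Clec4a2, Tmem51, Acss1, Gpr18 and Clec4a1, with r of 0.885, 0.884, 0.882, 0.873 and 0.867. Clec4a1 and Clec4a2 encode lectin receptors of myeloid cells. The comparison covered 12688 genes over 15 libraries in RM-9 and 14227 genes over 16 libraries in MC-38.

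Genes of the macrophage and monocyte list moved in the same direction at 12 h. In MC-38, 7 of 10 were called lower, among them C1qb at -1.56 (adjusted p = 0.00497), Csf1r, the receptor of macrophage colony-stimulating factor, at -1.32 (adjusted p = 0.00537) and Adgre1, the F4/80 antigen, at -1.04 (adjusted p = 0.0105). In RM-9, 5 of 10 were called lower, with C1qa at -0.94 (adjusted p = 0.0303) and Csf1r at -0.92 (adjusted p = 0.0246). Of all genes, 2.59% were called lower in MC-38 and 8.30% in RM-9 at this time. The summed level of the 10 genes ran from 871 to 1383 TPM in MC-38 Control and from 320 to 752 TPM at 12 h, without overlap. In RM-9 it ran from 393 to 619 TPM in Control, from 199 to 379 TPM at 12 h and from 460 to 588 TPM at 24 h. None of the 10 was at 0 in every library of a group. Under median-ratio scaling and without mitochondrial genes 0 of 10 were called in RM-9 at 12 h, while 8 and 7 were called lower in MC-38. Under these scalings 1544 of 15698 and 675 of 15671 of all genes were called lower in MC-38. Ptprc, the CD45 leukocyte antigen, fell in both models at 12 h (-0.77 in RM-9 and -0.66 in MC-38).

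Over libraries, log2 Cd74 correlated with the log2 summed level of these genes at r = 0.70 in RM-9 (Spearman rho 0.68, n = 15) and at r = 0.66 in MC-38 (rho 0.76, n = 16). Without the 2 libraries farthest from the median of the summed level r was 0.62 and 0.74. Cd74 per unit of C1qa was 2.03 ± 0.43 (SD, n = 4) in RM-9 Control and 1.85 ± 0.65 at 12 h (exact permutation p = 0.600). In MC-38 it was 1.31 ± 0.23 in Control and 1.80 ± 0.89 at 12 h (exact permutation p = 0.457). Per unit of C1qb the MC-38 ratio was 1.26 ± 0.18 in Control and 2.12 ± 0.92 at 12 h, without overlap (exact permutation p = 0.0286, or 0.250 adjusted over 70 such ratios). In RM-9 at 24 h Cd74 per unit of C1qa was 1.21 ± 0.23 (n = 3, exact permutation p = 0.0571, or 0.267 adjusted over 70 such ratios). Per unit of Cd68, another gene of the list, Cd74 was 8.16 ± 2.67 in RM-9 Control and 4.11 ± 1.19 at 12 h. In MC-38 it was 5.26 ± 1.51 in Control and 3.30 ± 0.77 at 12 h, lower where the C1qa and C1qb ratios were higher. The exact permutation p was 0.0571 and 0.114, or 0.267 and 0.348 adjusted over 70 such ratios. The part of these cells in the class II values was not tested beyond these ratios.

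**Figure D4:**
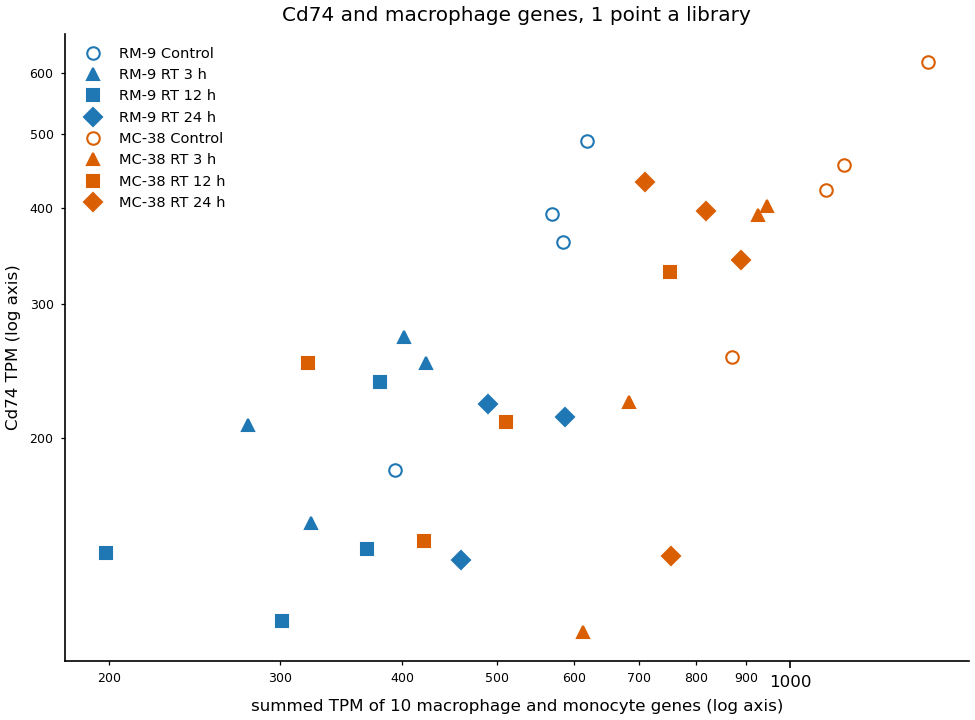
Cd74 TPM against the summed TPM of 10 macrophage and monocyte genes, both on log axes, 1 point per library, with RM-9 in blue, MC-38 in orange and Control as open circles. The 4 MC-38 RT 12 h libraries lie at summed levels of 320 to 752 TPM, left of the 4 MC-38 Control libraries at 871 to 1383 TPM.

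The other markers gave a mixed picture. In the dendritic cell list of 9 genes, Itgax, the integrin CD11c, fell in MC-38 at 12 h (-0.75, adjusted p = 0.0323) and Zbtb46, a dendritic cell transcription factor, rose (0.66, adjusted p = 0.0172), while in RM-9 0 of 6 tested were called. The summed level of this list overlapped Control at 12 h in both models. Xcr1, a marker of cross-presenting dendritic cells, was at or below 0.379 TPM in every library. In the T cell list, 3 of 5 fell in MC-38 and 2 of 3 tested fell in RM-9 at 12 h. Of all genes at 12 h, 2.59% were called lower and 28.5% higher in MC-38, and 8.30% were called lower in RM-9. Under both other scalings 5 of 5 fell in MC-38 and 0 of 3 in RM-9, and under median-ratio scaling Zbtb46 was not called. The summed level of the 4 skeletal muscle genes ran from 197 to 1861 TPM in RM-9 Control, from 2.00 to 721 TPM at 3 h and from 1.77 to 747 TPM at 12 h. In MC-38 it ran from 10.2 to 8069 TPM in Control and from 2.69 to 331 TPM at 12 h. The median log2 fold change of these genes in RM-9 was -5.00 for RT 3 h and -4.18 for RT 12 h, that in MC-38 was -3.73 for RT 12 h, and 0 of 4 were called each time. In RM-9 the 4 epithelial genes summed to 1059 to 1289 TPM in Control and to 610 to 979 TPM at 12 h, without overlap, and 1 of 4 was called (Krt18, -0.75). The part of muscle and epithelial content in the class II values was not tested.

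The wider pathway held 37 further genes chosen for their roles, of which 34 were listed and 29 in RM-9 and 31 in MC-38 were tested. At 12 h in RM-9, 5 of 29 were called lower and 0 higher, against 8.30% of all genes lower. Under median-ratio scaling and without mitochondrial genes 0 of 29 were called. They were Cd4, the T cell co-receptor for class II (-0.65), Ifi30, the lysosomal thiol reductase (-0.64), Nfyc, a subunit of NF-Y (-0.52), Ifngr1, a chain of the interferon-gamma receptor (-0.37), and Lgmn, the lysosomal asparaginyl endopeptidase (-0.33). The adjusted p-values ran from 0.0246 for Nfyc to 0.0475 for Ifngr1. In RM-9 no gene of this list was called at 3 h or 24 h.

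In MC-38 at 12 h, 3 of 31 were called lower and 6 higher, where 28.5% of all genes were called higher. Ctss, the cathepsin that trims the invariant chain, fell by 1.07 on the log2 scale (adjusted p = 0.00523), from 479 ± 68.1 TPM (SD, n = 4) to 236 ± 80.7 TPM. Cd4 changed by -0.75 (adjusted p = 0.0215) and Lgmn by -0.43 (adjusted p = 0.0225). Cd44, a partner of the invariant chain at the surface, rose by 0.62 (adjusted p = 0.0145), Rfx5, the DNA-binding RFX subunit, by 0.56 (adjusted p = 0.0336) and Ifi30 by 0.43 (adjusted p = 0.0252). Of the class II transcription list, 2 of 7 genes, Rfx5 and Rfxap, were called higher, a share close to that of all genes. Under median-ratio scaling 6 of 31 were called lower, Ctss, Cd4 and Lgmn among them, and 0 higher.

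At 24 h in MC-38, 8 of 31 were called higher and 0 lower, against 13.2% of all genes called higher and 0.548% lower. Under median-ratio scaling the shares of all genes were 7.85% and 8.15%, and 4 of 31 were called higher, Jak2 and Irf2 among them, and 4 lower. Of the 8, 6 belonged to the interferon-gamma axis, with Irf1 at 0.63 (adjusted p = 0.0372), Irf2 at 0.61 (adjusted p = 0.00501) and Jak2 at 0.51 (adjusted p = 0.0167). Lag3, a T cell receptor for class II, rose by 0.70 (adjusted p = 0.0234). Ciita, which lies downstream of this axis, was at 0.779, 2.14, 1.27 and 1.83 TPM in these mice and at 1.53, 1.46, 0.989 and 1.76 TPM in Control. The values overlapped, and the log2 fold change was 0.01, with an interval from -0.54 to 0.57.

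Before RT, 25 of 31 pathway genes were called higher in MC-38 than in RM-9 Control tumors and 2 lower, Ctsl and Cd63, against 64.7% of all genes higher and 10.7% lower. Median-ratio scaling gave 15 higher and 8 lower. Irf1 was at 164 ± 36.5 against 18.2 ± 3.04 TPM (SD, n = 4 each), a log2 fold change of 3.12. On the same scale the gap of Cd74 was 0.32, and the contrast between genes was not itself tested.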

How the data were processed

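Messenger RNA was sequenced in 31 tumor libraries, 1 per mouse, with single-end 75-base reads and a stranded kit. The authors deposited 1 table per library with TPM, FPKM and coverage (mean read signal per base of a gene) per gene. The aligner, counter and filters are not given in the sources used here. The submitters' processing notes name bcl2fastq 2.17 and build GRCm39, yet 91.1% of genes shared a start or end with GENCODE M21 (GRCm38), so coordinates were read as GRCm38. TPM was summed per gene ID after entries on CHR_ references were dropped. The tables hold no counts, so no counting error can be given, and low values such as Ciita rest on few reads.

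Groups came from the sample labels. Log2(TPM + 0.5) was fitted with limma 3.58.1 in R 4.3.3 (lmFit, eBayes with trend), 4 groups per model, over the genes whose mean TPM reached 0.5 (14013 for RM-9, 15698 for MC-38). A fit of all 31 libraries over 15358 genes gave the baseline and the differences between models. Benjamini-Hochberg adjustment ran over all genes tested in a comparison, with a threshold of 0.05. Exact permutation tests were two-sided on mean values. Dunnett comparisons used scipy 1.17.1. Each member was named. Of the pathway list, called genes were named, the 4 with the largest change first, with others where a result on members needed them. The 5 genes most like the mean of H2-Aa, H2-Ab1, H2-Eb1 and Cd74 were taken by Pearson correlation among those whose mean TPM reached 1. The members and lists were chosen with earlier results of these data known. Alternatives changed the pseudocount, filter, scaling, block, trend, groups in the fit, test and mice. Promoter sequences are from RefSeq (GRCm38.p6). The labels do not say how the mice were assigned, and p-values set group differences against the variation between these mice.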

Additional observations from a re-analysis of the deposited data

How the results depend on the processing

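The counts of members called moved with the processing mainly at RM-9 12 h and at baseline. At RM-9 12 h the 7 members called became 0 under median-ratio scaling, without mitochondrial genes and without a filter on low values, 1 with only the 2 compared groups in the fit, 3 without the trend and 2 with the mouse number as a replicate block. The cause was not tested. At baseline the 4 called became 1 under median-ratio scaling and without mitochondrial genes. The replicate block gave 1 as well. There each block lies within 1 model, so the estimate depends on which mice serve as reference and cannot test the baseline difference. At MC-38 12 h the 1 called became 0 without a filter. Dunnett comparisons, which carry no adjustment over genes, gave 1 at 24 h in RM-9 and 1 at 24 h in MC-38, where limma gave 0. With each mouse left out in turn, the count ran from 0 to 7 at RM-9 12 h, from 0 to 4 at MC-38 12 h and from 0 to 1 for the difference between models at 12 h, the 1 being H2-DMb1 without RM-9 Control mouse 3 (1.14, adjusted p = 0.0371). The block changed no other count. Counts for the pathway and marker lists under other scalings, given beside each list, were added after the data were seen. Mouse numbers name samples: same-numbered deviations correlated at -0.39 to 0.32 over 21 pairs in RM-9 and at -0.48 to 0.55 over 24 pairs in MC-38. This gave no clear sign that the numbers pair the mice, but with so few mice per group it cannot exclude pairing.

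Some values near 0 changed sign, none of them past the threshold. Under median-ratio scaling the baseline log2 fold changes were -0.35 for Cd74, -0.17 for H2-Aa, -0.29 for H2-Eb1 and -0.34 for H2-Ab1, and without mitochondrial genes -0.11 for Cd74, -0.051 for H2-Eb1 and -0.10 for H2-Ab1. In MC-38, median-ratio scaling gave -0.34 for H2-DMa at 12 h and, at 24 h, -0.20 for Ciita, -0.12 for H2-DMa and -0.24 for H2-DMb1, and leaving out mitochondrial genes gave -0.13 for H2-DMa at 12 h, -0.078 for Ciita and -0.084 for H2-DMb1 at 24 h. With each mouse left out, the range was -0.14 to 0.21 for Ciita, -0.074 to 0.54 for H2-DMa, -0.17 to 0.35 for H2-DMb1 and -0.27 to 0.16 for H2-DMb2 at MC-38 24 h. It was -0.10 to 0.13 for H2-DMa and -0.21 to 0.043 for H2-DMb1 at MC-38 12 h, -0.023 to 0.31 for Ciita at RM-9 3 h and -0.0016 to 0.57 for H2-Ab1 at baseline. The drop in the ratio of H2-Ab1 to H2-Aa at MC-38 12 h was -0.21 and ran from -0.26 to -0.16 with each mouse left out. By coverage it was -0.34, but that ratio differs from the TPM ratio by a nearly constant factor. Both were tried after the data were seen. Pseudocounts, a filter at a mean TPM of 5 and inclusion of CHR_ references kept each count within 1.5 times.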

Other observations

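H2-Oa, the alpha chain of H2-DO, which restrains H2-DM, was near the limit of detection in RM-9 and well above it in MC-38. It was at 0.544, 0.568, 0.428 and 0.906 TPM in the 4 RM-9 Control mice and at 6.88, 6.27, 9.34 and 10.6 TPM in the 4 MC-38 Control mice (log2 fold change 2.97, adjusted p = 1.13e-09 by limma). After RT in MC-38 it was at 11.1, 9.41, 10.2 and 16.1 TPM at 12 h and at 5.60, 23.5, 15.5 and 15.5 TPM at 24 h, differences that did not pass the threshold (0.48 and 0.70 on the log2 scale, adjusted p = 0.276 and 0.189). Its partner chain H2-Ob was at 0.376 ± 0.155 TPM (SD, n = 4) in the same MC-38 Control mice and at 0.138 ± 0.0343 TPM at 12 h, too low to enter the limma fit. The pseudogene H2-Ea-ps was listed at 0 in all 31 libraries.

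Genes of the B cell list were split in MC-38. Pax5, a B cell transcription factor, was at 5.28 ± 2.004 TPM (SD, n = 4) in Control and at 8.77 ± 0.536 TPM at 12 h (log2 fold change 0.75, adjusted p = 0.0400 by limma), a call lost under median-ratio scaling and without mitochondrial genes. Cd79a, a chain of the B cell receptor complex, was at 3.28 ± 1.13 TPM in Control and at 7.57 ± 1.28 TPM at 24 h (1.13, adjusted p = 0.00222). Of all genes in MC-38, 28.5% were called higher at 12 h and 13.2% at 24 h. Cr2 and Ms4a1 were each at 0.150 TPM or less in every MC-38 library. In RM-9, Pax5 did not exceed 0.0814 TPM and Cd79a did not exceed 0.142 TPM in any library.

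In RM-9 at 24 h the ratio of Cd74 to the lysosomal cathepsin Ctss was below Control. Cd74 per unit of Ctss was 2.14 ± 0.347 (SD, n = 4) in Control and 1.298 ± 0.271 (n = 3) at 24 h, with an exact permutation p of 0.0286, or 0.250 after adjustment over 70 such ratios. These ratios were chosen after the values were seen.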
